A study of Mus musculus with 12 samples.

Results

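Genes that respond to glucocorticoids were followed in the kidneys of mice given colistin, a polymyxin antibiotic used against Gram-negative bacteria and known for its renal toxicity. The set comprised 9 genes: Zbtb16, Fkbp5, Tsc22d3, Sgk1, Klf9, Errfi1, Ddit4, Cebpd and Nr3c1, the last of which encodes the glucocorticoid receptor itself. Every probe whose array symbol was one of these names was taken, which gave 11 of the 45281 probes, for 9 of the 30869 gene symbols on the array. All 12 mice were male C57BL/6 animals, 10 weeks old. Of these, 6 received colistin at 16 mg/kg per day in 2 doses a day for 72 hours, and 6 received 0.1% saline in 2 doses a day over the same 72 hours. The labels name no genetic change in either group. Total kidney RNA of each mouse was hybridised to 1 array of an Illumina MouseWG-6 v2 BeadChip, a single-colour bead array.

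The glucocorticoid receptor is a nuclear receptor that waits in the cytoplasm bound to Hsp90 chaperones. When corticosterone, the main glucocorticoid of mice, binds it, the receptor enters the nucleus and activates genes through glucocorticoid response elements, which are short inverted repeats in DNA. In the kidney the same hormone can also occupy the related mineralocorticoid receptor, and enzymes of the Hsd11b family set how much active hormone reaches either receptor. Glucocorticoid levels rise with stress, food deprivation and time of day, so genes of these responses were examined beside the members.

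The BeadChips numbered 2, and each held 3 mice of either group. Saline mice lay at positions 1, 3 and 5 of both BeadChips and colistin mice at positions 2, 4 and 6, so the position of an array and the treatment of its mouse cannot be told apart. Between 14661 and 16154 probes were detected per array, where detected means a detection p-value under 0.01 against the array's negative control beads. Saline mouse 2 stood apart on the first principal component, and saline mouse 5 had a 95th percentile of raw signal of 475, against 752 or more on each of the other arrays. Saline mouse 1 stood apart in fat markers: its adipocyte score, the mean log2 difference from the saline mean over Cfd and Car3, was 3.61, against -1.28 to 1.35 in colistin mice and -1.20 to -0.05 in the other saline mice. Markers of kidney tubules were detected for 6 of 6 genes. In these bulk samples, fewer cells of a type and less RNA per cell cannot be told apart.

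Values below are log2 signals after background correction and quantile normalization, and a difference is the colistin mean minus the saline mean with limma's standard error (SE). A probe was tested where it was detected on at least 4 of the 12 arrays and called at a Benjamini-Hochberg adjusted p under 0.05 in limma. Of the 11 member probes, 9 probes of 8 genes were tested. The members were chosen by name with the colistin against saline differences of these arrays known, so those differences are given as a description. One of the 9 was called, the Zbtb16 probe, which was higher in colistin mice. Over all 16179 tested probes, 0.457% were called, 0.321% higher and 0.136% lower, and nothing is read from the members' count beside these shares. In 0 of the 9 did all colistin mice lie above all saline mice (0.6% of all tested probes), and in 0 did all lie below (0.402%). The median difference of the 8 measured genes, each by its brightest tested probe, was 0.24, with 6 positive and 2 negative. Over all 11344 genes tested the median was 0.01, the quartiles were -0.12 and 0.12, and 51.3% were positive.

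**Figure D1:**
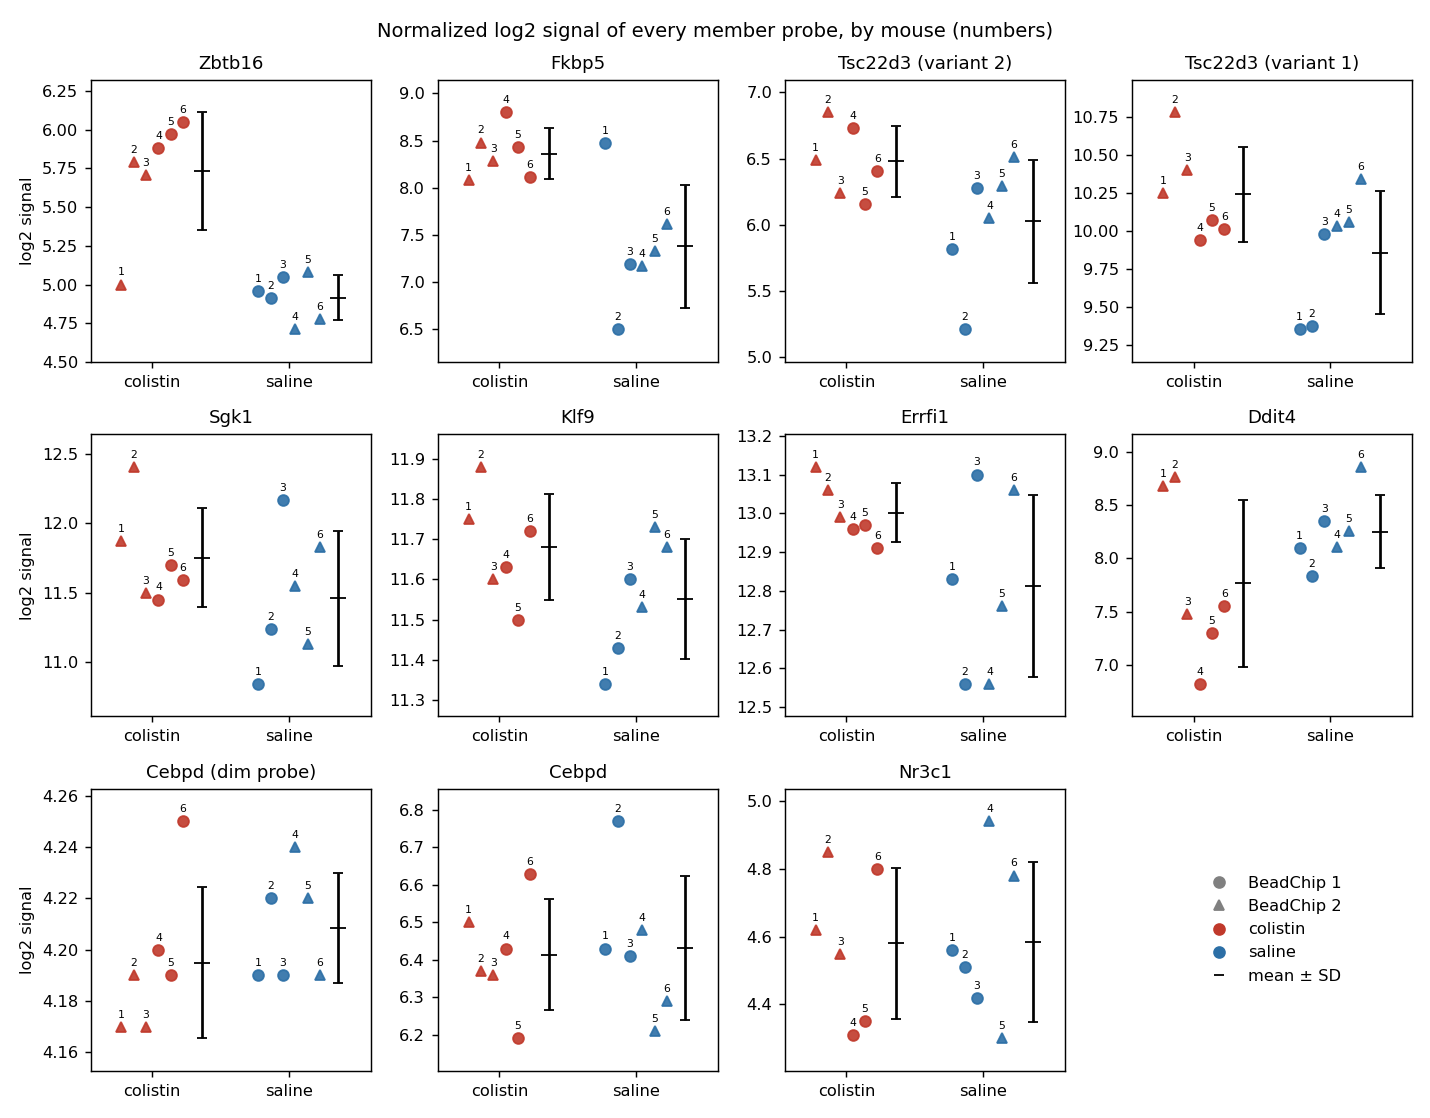
Normalized log2 signal of the 11 member probes in each mouse, with colistin mice in red on the left and saline mice in blue on the right of each panel; numbers name the mice, circles and triangles mark the BeadChips, and black bars are the mean ± SD of 6 mice. Zbtb16 lay above the saline range in 5 of 6 colistin mice, and Ddit4 lay below it in 4 of 6.

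The receptor gene Nr3c1 gave no usable level. Its single probe, on chromosome 18, was detected in 1 of 6 colistin mice and 2 of 6 saline mice, too few arrays for the test. Its log2 signals lay between 4.31 and 4.85 in colistin mice and between 4.30 and 4.94 in saline mice, close to the floor of the scale. The amount of receptor mRNA was therefore not compared.

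Fkbp5 encodes a co-chaperone that joins the Hsp90 complex of the receptor and lowers its affinity for hormone, and its induction forms a feedback loop. The Fkbp5 signal in colistin mice had a lowest value of 8.08, a median of 8.36 and a highest value of 8.80, against 6.50, 7.26 and 8.47 in saline mice. The colistin mice were tightly grouped and every one lay above the saline mean, but saline mouse 1, at 8.47, lay inside the colistin range. Fkbp5 averaged 8.37 ± 0.27 in colistin mice and 7.38 ± 0.65 in saline mice (SD, n = 6 each). The log2 difference of Fkbp5 was 0.98 ± 0.25 (SE), a 1.98-fold higher signal in colistin mice, and the probe was not called. Without saline mouse 1 the difference was 1.20 and the probe was called, as it was on BeadChip 2 alone, at 0.91. Calls over all 16179 tested probes also rose, from 74 to 330 without saline mouse 1 and to 298 on BeadChip 2 alone. Nothing is read from the Fkbp5 calls beside these counts. Saline mouse 1 is the animal with the high adipocyte score, and the part of fat in its Fkbp5 signal was not tested. Without saline mice 2 and 5, whose arrays stood apart, the Fkbp5 difference was 0.75 and it was not called.

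Fkbp5 was also set against markers of other cell types. A stromal score was taken for each mouse as the mean log2 difference from the saline mean over 22 measured endothelial, macrophage and fibroblast markers. The score lay between -0.60 and -0.31 in colistin mice and between -0.46 and 0.46 in saline mice, with saline mouse 1 at the bottom and saline mouse 2 at the top of the saline range. After each group's mean was removed, Fkbp5 and the score correlated with a Pearson r of -0.88 over the 12 mice (two-sided permutation test within groups, p = 0.00509, adjusted p = 0.0763). The adjustment covered 45 relations, those of the 9 member probes with the stromal score, the first principal component, the 95th percentile of raw signal, the tubule markers and Per1. Spearman's rho was -0.70 (permutation p = 0.0226, adjusted p = 0.163). The r was -0.92 on BeadChip 1 and -0.76 on BeadChip 2, and -0.50 without saline mice 1 and 2. Neither coefficient passed after adjustment. With the 95th percentile of raw signal, Fkbp5 had an r of 0.35 (permutation p = 0.347, adjusted p = 0.739). The rho of that relation was 0.66 (permutation p = 0.0253, adjusted p = 0.163), which did not pass either. Many probes shared the Fkbp5 pattern, and 47.6% of those tested had an r with it beyond 0.5 in either direction.

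The markers themselves were measured for 9 of 10 endothelial, 7 of 8 macrophage and 6 of 7 fibroblast genes, and Kdr, Cd68 and Col3a1 were not detected on enough arrays. Summed log2 signals of the endothelial markers were 65.2 to 68.4 in colistin mice and 63.2 to 74.4 in saline mice. Those of the macrophage markers were 39.1 to 43.6 in colistin mice and 41.3 to 47.0 in saline mice. The fibroblast sums were 34.3 to 36.3 in colistin mice and 37.1 to 41.5 in saline mice, the only set of these 3 whose groups did not overlap. Of single tested probes, 0.402% lay wholly lower in colistin mice, and no such share was taken for sums of markers. In each of the 3 sets limma called 0 markers. The fibroblast median difference was -0.56, but Col1a1 was at 0.01 ± 0.14 and Col1a2 at -0.13 ± 0.13 (SE). The part of these cells in the Fkbp5 difference was not tested.

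**Figure D2:**
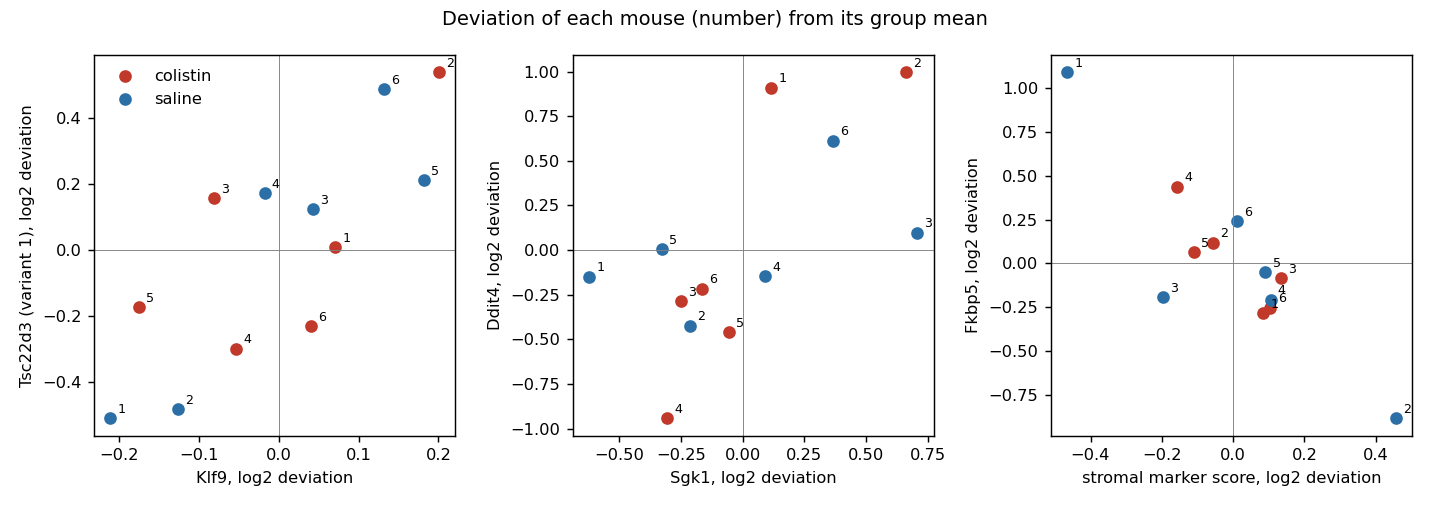
Each point is a mouse, numbered, with its group's mean subtracted, in log2 units; red points are colistin mice and blue points saline mice. The r was 0.79 for Tsc22d3 variant 1 with Klf9 (left), 0.64 for Ddit4 with Sgk1 (middle) and -0.88 for Fkbp5 with the stromal score (right, saline mice 1 and 2 at the ends), and none of the 3 passed after adjustment.

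Zbtb16, on chromosome 9, encodes PLZF, a transcription factor with a BTB domain and zinc fingers that is strongly induced by glucocorticoids in several cell types. The Zbtb16 signal in colistin mice had a lowest value of 5.0, a median of 5.84 and a highest value of 6.05, against 4.71, 4.94 and 5.08 in saline mice. In 5 of 6 colistin mice it lay above the highest saline mouse, and colistin mouse 1, at 5.0, lay within the saline range. The probe was dim, and it was detected in 6 of 6 colistin mice and 5 of 6 saline mice. Zbtb16 averaged 5.74 ± 0.38 in colistin mice and 4.91 ± 0.15 in saline mice (SD, n = 6 each). The log2 difference of Zbtb16 was 0.82 ± 0.15 (SE), or 1.77-fold, and it was the 107th largest of all tested probes by size.

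The Zbtb16 difference was 1.0 ± 0.16 on BeadChip 1 and 0.65 ± 0.20 on BeadChip 2 (SE, 3 mice a group). The background treatment set its size, since it was 0.45 with a larger offset and 0.29 when the raw signals were normalized with no background correction, and the probe was called in neither. Leaving out colistin mouse 2, 3, 4, 5 or 6, or saline mouse 4 or 6, ended the call, with differences between 0.76 and 0.83, and the probe was called on neither BeadChip alone, while without colistin mouse 1 the difference was 0.97. Without saline mice 2 and 5 it was 0.86 and the probe was called.

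Klf9 encodes a Krüppel-like transcription factor that is induced by glucocorticoids and also by thyroid hormone. The Klf9 signal had a lowest value of 11.50, a median of 11.67 and a highest value of 11.88 in colistin mice, against 11.34, 11.57 and 11.73 in saline mice. The ranges overlapped over most of their length, and the difference was 0.13 ± 0.10 (SE), or 0.08 without saline mouse 1. Cebpd, on chromosome 16, encodes a transcription factor of the acute phase response that also follows glucocorticoids. Its detected probe lay between 6.19 and 6.63 in colistin mice and between 6.21 and 6.77 in saline mice, with a difference of -0.02 ± 0.11 (SE). The other Cebpd probe was detected on 0 of the 12 arrays and carries no level.

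Tsc22d3 encodes GILZ, a leucine zipper protein that restrains NF-kB and AP-1 and is a classical mediator of glucocorticoid action on inflammation. The array reads its transcript variants 1 and 2 with separate probes. For variant 1 the lowest, median and highest signals were 9.94, 10.16 and 10.78 in colistin mice, against 9.35, 10.00 and 10.34 in saline mice. For variant 2 they were 6.16, 6.45 and 6.85 in colistin mice, against 5.21, 6.17 and 6.51 in saline mice. At both probes every colistin mouse lay above the saline mean and 2 of 6 lay above the highest saline mouse. The log2 differences were 0.39 ± 0.18 for variant 1 and 0.45 ± 0.19 for variant 2 (SE), and neither was called. Without saline mouse 2 the variant 2 difference was 0.29.

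Sgk1, on chromosome 10, encodes a kinase that keeps the epithelial sodium channel at the surface of distal tubule cells and is induced by glucocorticoids and by aldosterone. The Sgk1 signal had a lowest value of 11.45, a median of 11.64 and a highest value of 12.41 in colistin mice, against 10.84, 11.40 and 12.17 in saline mice. Colistin mouse 2 and saline mouse 3 were the highest of their groups, and the other mice overlapped. The difference was 0.29 ± 0.21 (SE), and it was 0.16 without colistin mouse 2 and 0.43 without saline mouse 3.

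Errfi1 encodes Mig6, which binds and inhibits the EGF receptor. The Errfi1 signal had a lowest value of 12.91, a median of 12.98 and a highest value of 13.12 in colistin mice, against 12.56, 12.79 and 13.10 in saline mice. The colistin mice lay close together at the top of a wider saline range. Errfi1 averaged 13.00 ± 0.07 in colistin mice and 12.81 ± 0.24 in saline mice (SD, n = 6 each), a difference of 0.19 ± 0.11 (SE).

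Ddit4, also on chromosome 10, encodes Redd1, an inhibitor of the growth kinase complex mTORC1 that is induced by glucocorticoids, hypoxia and energy stress. The Ddit4 signal had a lowest value of 6.82, a median of 7.51 and a highest value of 8.76 in colistin mice, against 7.83, 8.18 and 8.86 in saline mice. The colistin mice were divided: mice 3 to 6 lay below every saline mouse, at 7.55 or less, while mice 1 and 2 lay within the saline range, at 8.68 and 8.76. Ddit4 averaged 7.77 ± 0.78 in colistin mice and 8.25 ± 0.35 in saline mice (SD, n = 6 each). Its difference of -0.48 ± 0.29 (SE) ran against that of Fkbp5 and Zbtb16 and was not called. It was -0.68 without colistin mouse 2 and -0.30 without colistin mouse 4.

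**Figure D3:**
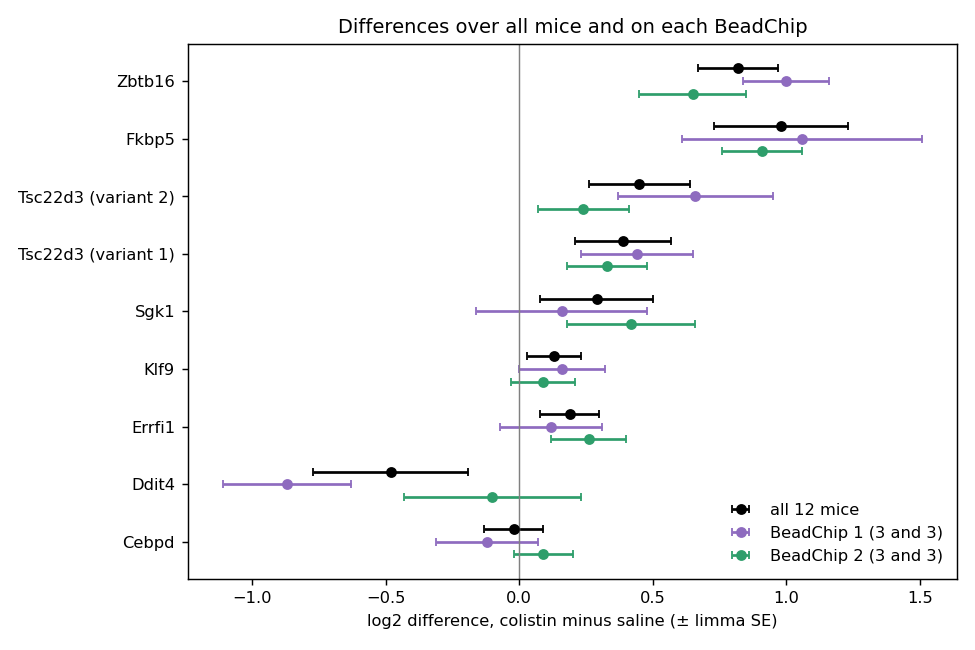
Log2 difference, colistin minus saline, for the 9 tested member probes; points are limma estimates and bars their SE, over all 12 mice (black) and on BeadChip 1 (purple) and BeadChip 2 (green) alone, with 3 mice a group. The Ddit4 difference was -0.87 on BeadChip 1 but -0.10 on BeadChip 2, while that of Fkbp5 was 1.06 on the first and 0.91 on the second.

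Whether the difference itself varied between the BeadChips did not enter the choice of members and was tested over all probes. For Ddit4 the difference was -0.87 ± 0.24 on BeadChip 1 and -0.10 ± 0.33 on BeadChip 2, and the interaction was 0.77 ± 0.46 (SE, limma, adjusted p = 1). For Zbtb16 the interaction was -0.35 ± 0.27 (SE, limma, adjusted p = 1). These were the member probes with the smallest interaction p. None of the 9 had an unadjusted p under 0.05, and over all probes limma called 0, or 0%, with 2.55% at an unadjusted p under 0.05. In simulated data limma called 35% of the probes given an interaction of 1 log2 unit and 84% of those given 2. The absence of a call therefore does not show that the differences were equal on the BeadChips.

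The level on either BeadChip was compared in the same way, and no member probe was called. The Tsc22d3 variant 1 probe had a BeadChip 2 minus BeadChip 1 difference of 0.52 ± 0.13 (SE, limma, adjusted p = 0.813), and that of Ddit4 was 0.70 ± 0.24 (SE, limma, adjusted p = 0.924). These 2 of 9 member probes had an unadjusted p under 0.05, against 4.98% of all probes, and limma called 0 of all 16179.

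Covariation of the members inside the groups was examined next. Correlations were taken over the 12 mice after each group's mean was removed, for all 36 pairs of tested member probes, with 100000 permutations of the mice within their groups. The 10 pairs among the probes of Tsc22d3, Klf9, Sgk1 and Ddit4 had Pearson r between 0.46 and 0.79, and between 0.49 and 0.88 with the BeadChip mean also removed. These genes were singled out after the values were seen, and no pair with Sgk1 passed after adjustment. The 8 pairs of Zbtb16 lay between -0.56 and 0.17, and the 8 of Fkbp5 between -0.49 and 0.38. With the BeadChip mean also removed, the Zbtb16 pairs lay between -0.36 and 0.47 and the Fkbp5 pairs between -0.56 and 0.47. The r of Zbtb16 with Tsc22d3 variant 1 went from -0.20 to 0.47 in this way. Errfi1 had r of 0.37 to 0.61 with the probes of Tsc22d3, Klf9, Sgk1 and Ddit4, a range that overlaps theirs. The pair of Errfi1 and Ddit4 had the smallest Pearson p of all 36, with an r of 0.53 (permutation p = 0.00324, adjusted p = 0.0626). Cebpd was negative with every other member probe, from -0.52 to -0.12.

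After adjustment over the 36 pairs, 0 passed by Pearson's r, with 8 at an unadjusted permutation p under 0.05, and 2 passed by Spearman's rho. The first was Tsc22d3 variant 2 with Klf9, with a rho of 0.85 (permutation p = 0.00157, adjusted p = 0.0283) and an r of 0.75 (permutation p = 0.0079, adjusted p = 0.0626). Its r was 0.55 on BeadChip 1, 0.90 on BeadChip 2 and 0.79 without the mice farthest from the median, saline mice 2 and 6. The second was Klf9 with Ddit4, with a rho of 0.79 (permutation p = 0.00119, adjusted p = 0.0283) and an r of 0.68 (permutation p = 0.0104, adjusted p = 0.0626). Its r was 0.42 on BeadChip 1, 0.77 on BeadChip 2 and 0.65 without saline mouse 1 and colistin mouse 2.

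The probes of Tsc22d3 variants 1 and 2, which share a gene, had an r of 0.72 (permutation p = 0.0155, adjusted p = 0.0799) and a rho of 0.72 (permutation p = 0.015, adjusted p = 0.0902). Colistin mouse 2 had the highest signal of its group for Tsc22d3, Sgk1, Klf9 and Ddit4, at both Tsc22d3 probes. Saline mouse 1 had the lowest signal of its group for Tsc22d3 variant 1, Sgk1 and Klf9 and the highest for Fkbp5.

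**Figure D4:**
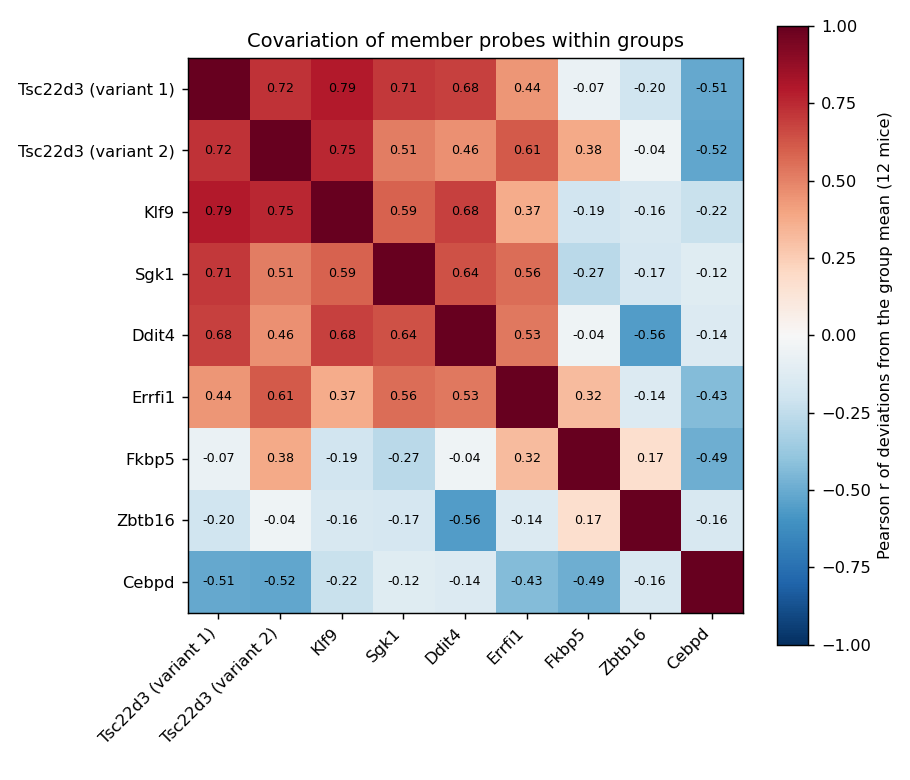
Pearson r between member probes over 12 mice, after each group's mean was removed, from -1 (blue) to 1 (red). The upper left block of Tsc22d3, Klf9, Sgk1 and Ddit4 is positive throughout, from 0.46 to 0.79, while the Zbtb16 row does not exceed 0.17. With the BeadChip mean also removed, which is not drawn, the Zbtb16 pairs reached 0.47.

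Upstream DNA was read for the members, and windows are shown for Sgk1, Tsc22d3, Klf9 and Ddit4, the genes singled out above after their values were seen. From the RefSeq promoter table (GRCm38.p6), 14 starts of 6 of the 9 genes were read, and none was read for Zbtb16, Cebpd or Nr3c1. The upstream DNA of these genes was therefore not examined, and their absence from the RefSeq table is not shown. The 250 bases upstream of each start were searched on both strands for a perfect inverted repeat, AGAACA and TGTTCT with 3 bases of any kind between them, which is a strong form of the glucocorticoid response element, and for its 6-base core TGTTCT alone, which the repeat contains. The perfect repeat was found in 3 of 32851 promoters (0.00913%), and one of these was a start of Sgk1. The core was found in 16.1% of all promoters and in 4 of the 14, at 3 starts of Sgk1 and 1 of Tsc22d3. The windows below show the Sgk1 start with the perfect repeat, the Tsc22d3 start with the core, and the Klf9 and Ddit4 windows, which hold neither; capitals mark matches on either strand.
Sgk1, chr10:21993640-21993889, plus strand: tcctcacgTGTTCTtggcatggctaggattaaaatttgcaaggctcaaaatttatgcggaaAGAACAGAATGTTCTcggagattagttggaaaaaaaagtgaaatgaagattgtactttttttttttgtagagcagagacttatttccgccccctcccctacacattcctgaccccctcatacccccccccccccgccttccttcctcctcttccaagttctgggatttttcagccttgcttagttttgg
Tsc22d3, chrX:140600523-140600772, minus strand: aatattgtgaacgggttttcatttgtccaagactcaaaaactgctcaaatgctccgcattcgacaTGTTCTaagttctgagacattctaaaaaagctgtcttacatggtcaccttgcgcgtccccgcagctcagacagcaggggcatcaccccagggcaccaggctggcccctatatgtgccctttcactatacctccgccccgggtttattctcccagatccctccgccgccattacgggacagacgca
Klf9, chr19:23140976-23141225, plus strand: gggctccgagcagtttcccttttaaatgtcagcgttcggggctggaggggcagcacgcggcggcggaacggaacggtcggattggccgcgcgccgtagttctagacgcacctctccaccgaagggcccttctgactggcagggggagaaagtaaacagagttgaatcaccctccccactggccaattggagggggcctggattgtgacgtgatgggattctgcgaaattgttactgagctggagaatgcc
Ddit4, chr10:59951771-59952020, minus strand: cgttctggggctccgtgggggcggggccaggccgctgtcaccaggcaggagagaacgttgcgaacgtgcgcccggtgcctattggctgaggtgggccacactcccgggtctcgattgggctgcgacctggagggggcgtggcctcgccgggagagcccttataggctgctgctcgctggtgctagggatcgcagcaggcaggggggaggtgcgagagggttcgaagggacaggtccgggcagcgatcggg
The Sgk1 repeat occupies bases 21993701 to 21993715 of chromosome 10, starting 189 bases before its own start and 965 bases before the most downstream of the 6 Sgk1 starts in the table. A further core lies near the 5′ end of the same window. The matches describe letters only, and a window with no match says nothing of binding elsewhere.

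The genes whose pattern was most like each member were taken from the tested genes by the same within-group r over 12 mice. Genes with predicted, clone or accession-like names, or names starting with mt-, were passed over. The ranks below are therefore among the remaining genes. Per1, a clock gene that is itself induced by glucocorticoids, was the second closest to Ddit4 (r = 0.89), after Arrdc2 (r = 0.89), and the third closest to Sgk1 (r = 0.87), after Ccny (r = 0.91) and Sfpq (r = 0.87). The r of Per1 was 0.73 with Klf9 and 0.72 with Tsc22d3 variant 1, but -0.49 with Zbtb16 and -0.28 with Fkbp5. Per1 was set against every member after its values were seen, so these are descriptions, although they enter the 45 relations above. Its own difference between the groups was -0.05 ± 0.22 (SE), with signals of 7.13 to 8.29 in colistin mice and 7.14 to 8.17 in saline mice.

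The closest genes were Clk1 (r = 0.89) and Podxl (r = 0.84) for Klf9, Psmc4 (r = 0.91) and Ifitm1 (r = 0.88) for Tsc22d3 variant 1, and Rnf121 and Gk5 (r = 0.87 each) for Zbtb16. For Fkbp5 they were Ncdn (r = 0.96) and P2rx4 (r = 0.95), for Errfi1 Plekhf1 and Atf7 (r = 0.90 each), and for Cebpd Ino80c and Cdkn2c (r = 0.91 each). Members differed in how many probes shared their pattern. An r beyond 0.5 in either direction was reached by 47.6% of tested probes for Fkbp5, 35.8% for Errfi1 and 22.3% for Cebpd, against 4.57% for Zbtb16 and 7.80% to 10.5% for Klf9, Sgk1, Tsc22d3 and Ddit4. The first principal component, which carries saline mouse 2 at its end, had an r of -0.80 with Fkbp5, -0.66 with Errfi1 and 0.49 with Cebpd, and of 0.05 with Zbtb16. Without saline mice 1 and 2 these were -0.21 for Fkbp5, -0.76 for Errfi1, 0.09 for Cebpd and 0.18 for Zbtb16, and none of the relations with this component passed after adjustment.

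Other genes known to respond to glucocorticoids lay on both sides of no difference. Of 20 listed genes 17 were measured, 2 were called higher and 0 lower by limma (0.321% and 0.136% of all probes), and their median difference was 0.30, with 12 positive. This list was also chosen with earlier results of these data known, and nothing is read from its count beside these shares. The called genes were Cdkn1a, the cell cycle inhibitor p21 (0.94 ± 0.15, SE, adjusted p = 0.0085), and Lcn2, the secreted injury marker lipocalin 2 (1.66 ± 0.29, SE, adjusted p = 0.0171). Lcn2 lay between 6.96 and 8.85 in colistin mice and between 5.48 and 6.45 in saline mice, and Cdkn1a between 5.18 and 6.21 in colistin mice and between 4.45 and 4.89 in saline mice. These values are those of the brightest probe of each gene, at which the groups did not overlap (0.6% of all probes lay higher in this way). The Cdkn1a probe was detected in 6 of 6 colistin mice but 1 of 6 saline mice, whose values lay close to the floor. It met the detection filter only through the colistin mice, so its call and lack of overlap are descriptions. Another Cdkn1a probe, detected in 2 of 6 colistin mice and 0 of 6 saline mice, was not tested. A second tested Cdkn1a probe overlapped, at 4.83 to 5.21 in colistin mice and 4.35 to 5.11 in saline mice, and was not called (0.25 ± 0.13, SE, limma, adjusted p = 0.487). Both genes also respond to stimuli other than glucocorticoids. Among the rest, not called, Pdk4, which restrains glucose oxidation, was at 0.76 ± 0.35 and Mt1, a metallothionein, at 0.50 ± 0.19 (SE). On the other side, also not called, Nfkbia, the NF-kB inhibitor, was at -0.35 ± 0.15 and Txnip, a thioredoxin inhibitor, at -0.41 ± 0.18 (SE).

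**Figure D5:**
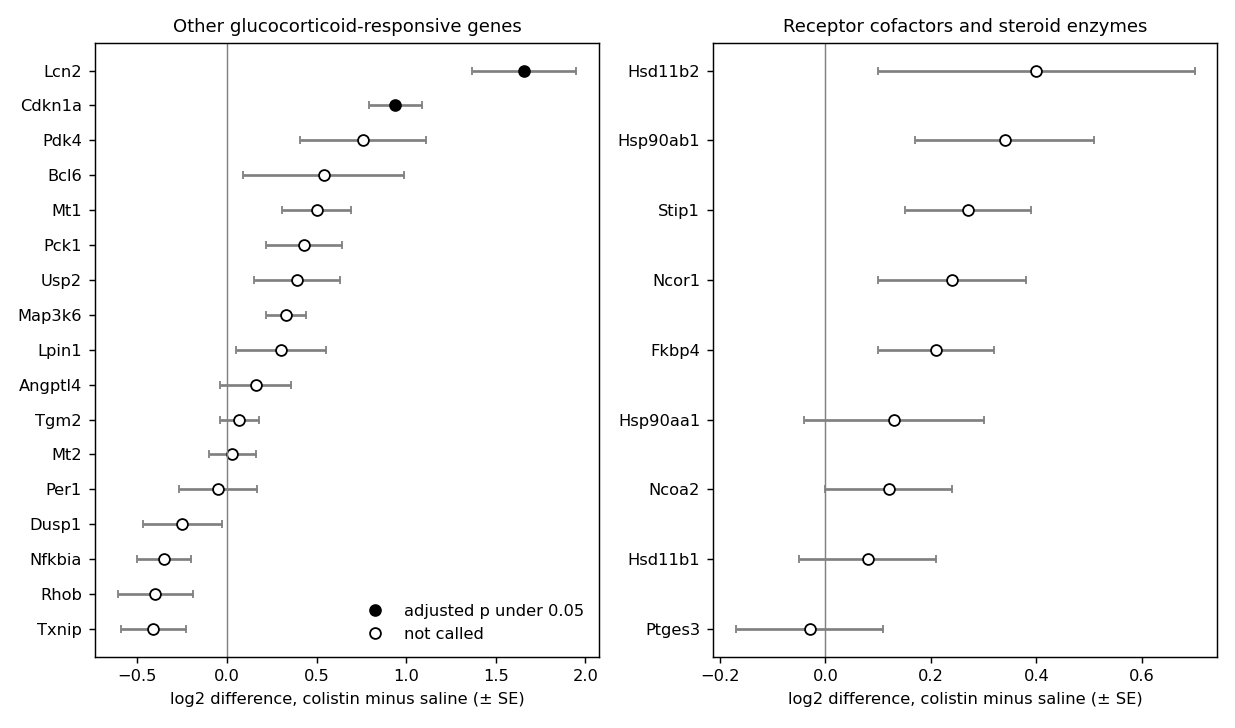
Log2 difference, colistin minus saline, for the measured genes of 2 lists, by their brightest probe, with limma SE as bars; filled points were called. Among other glucocorticoid-responsive genes (left) Lcn2 at 1.66 and Cdkn1a at 0.94 were called, and among receptor cofactors and steroid enzymes (right) 8 of 9 were positive and 0 called.

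The machinery of the receptor was measured for 9 of 12 listed genes. Limma called 0 of them, and the median difference was 0.21, with 8 positive. By smallest p, the leading genes were Stip1, a co-chaperone that links Hsp70 and Hsp90 (0.27 ± 0.12, SE), and Hsp90ab1, an Hsp90 chaperone (0.34 ± 0.17, SE). Hsd11b1, which regenerates active glucocorticoid, was at 0.08 ± 0.13, and Hsd11b2, which inactivates it in the distal nephron, at 0.40 ± 0.30 (SE). The mineralocorticoid receptor gene Nr3c2 was not detected on enough arrays.

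Lists for aldosterone, fasting, the acute phase and the clock were set beside the members. All 8 aldosterone-responsive genes were measured and 0 were called, with a median of 0.07; Nedd4l, a ubiquitin ligase for the sodium channel, was at 0.44 ± 0.18 and Scnn1a, a subunit of that channel, at 0.73 ± 0.42 (SE). Of 10 fasting genes 8 were measured and 0 called, with a median of 0.01; G6pc, of gluconeogenesis, was at 0.43 ± 0.15 (SE). Of 9 C/EBP and acute phase genes 7 were measured and 1 was called higher (0.321% of all probes), with a median of 0.23. The called gene was Lcn2, at the same probe as in the list of glucocorticoid-responsive genes above, and nothing is read from this count. Of 14 clock genes 10 were measured and 0 called, with a median of 0.04; Bhlhe40 was at 0.32 ± 0.10 and Per2 at 0.40 ± 0.13 (SE).

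Adrenal tissue, which lies against the kidney, was checked by its own markers. Of 7 adrenal genes only Akr1b7 was measured, between 5.07 and 5.85 in colistin mice and between 4.90 and 6.15 in saline mice. Star, Cyp11a1, Cyp11b1, Cyp11b2, Cyp21a1 and Hsd3b1 were not detected on enough arrays. Lymphocyte markers were measured for 1 of 8 genes, adipocyte markers for 2 of 7 and neutrophil markers for 0 of 7. The summed adipocyte signals were 9.0 to 14.3 in colistin mice and 9.2 to 18.8 in saline mice, and Adipoq, Fabp4, Plin1, Cidec and Retn were not detected on enough arrays.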

How the data were processed

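Mean bead intensities of 45281 probes on 12 arrays, with a detection p-value per probe and array, were deposited by the authors as linear values and had not been background-subtracted, the lowest being 74.7. The authors also deposited normalized intensities per probe, used as an alternative. The submitters' processing notes list GenomeStudio and Partek, with settings not given in the sources consulted. The neqc function of limma 3.58.1, run in R 4.3.3, corrected the background and equalised the quantiles with an offset of 16, which compresses the differences of dim probes. Of the probes, 16179 (11344 genes) had a detection p-value under 0.01 on at least 4 arrays. Groups were compared with lmFit and eBayes, two-sided, with Benjamini-Hochberg adjustment. Correlations were tested in Python 3.11.15. Mice were separate animals, and the number of arrays limits the precision.

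The members and lists were chosen with earlier results of these data known. Named genes were all members, the 2 genes most like each, the called genes of each list or otherwise the 2 with the smallest p at their brightest probe, and the 2 members with the smallest interaction p. Of the genes this rule takes, 1 is not reported here. Pdk4, Mt1, Nfkbia, Txnip, Hsd11b1 and Hsd11b2 were named after their values were seen. Same-numbered mice did not deviate together (r from -0.26 to 0.12). The fit was tested on simulated data. Promoter sequences are RefSeq's (GRCm38.p6).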

Additional observations from a re-analysis of the deposited data

Results flagged for a closer look

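In 22 groups of 6 mice, 2 values lay far enough from the rest of their group to stand out, and about 1 in 20 groups would be marked by chance. Zbtb16 in colistin mouse 1 was 5.0, against 5.71 in the nearest colistin mouse, a gap of 0.677 of the group's range. Cebpd at its undetected probe was 4.25 in colistin mouse 6, against 4.20 in the nearest colistin mouse, a gap of 0.66 of a narrow range.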

How the results depend on the processing

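The median difference of the members, 0.24, kept its sign in all 25 alternatives, between 0.15 and 0.33. The count of called probes, 74 with 70.3% higher, was 45 (80% higher) with an offset of 50, 25 (92%) with no background correction, 33 (84.8%) with no detection filter, 27 (63%) with detection on all 12 arrays, 0 on BeadChip 1 alone, 298 (34.6%) on BeadChip 2 alone, 36 (88.9%) with the replicate block and 471 (42.3%) with array weights, whose estimation stopped before convergence. The count of called members, 1, was 0 with the offset of 50, no background correction, no detection filter, detection on all 12 arrays (where Zbtb16 was not tested), BeadChip 1 alone and the replicate block, and 2 with array weights. On BeadChip 2 alone it was 1, but the called probe was Fkbp5 and not Zbtb16. Leaving out each mouse in turn gave 38 to 330 called probes and 0 to 2 called members. The count was 330 (32.4% higher) without saline mouse 1 and 38 (86.8%) without saline mouse 4. Counts of 48 or fewer were also reached without colistin mouse 2 (45), 3 (40), 5 (46) or 6 (48) or saline mouse 6 (47). The interaction count, 0, was 1 without saline mice 2 and 5 and 0 in every other alternative run, each mouse left out included. Replicate numbers did not pair the mice, so the block is no separate evidence. Zbtb16 was called in 11 of 24 alternatives, Fkbp5 in 3 of 25 and no other member in any. Cebpd, at -0.02, was positive in some settings, up to 0.09 on BeadChip 2, and the other members kept their sign. The causes of these shifts were not tested. Zbtb16 is close to background, which limits how firmly its size is known.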
